A study of Caenorhabditis nigoni and Caenorhabditis briggsae with 14 samples.

Results

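The genes described here had RNA in males of the nematode Caenorhabditis briggsae and almost none in males of its sister species Caenorhabditis nigoni. They were chosen by their measured levels: a mean of at least 10 CPM (a gene's count per 1000000 gene counts of its library) over 3 male libraries of the C. briggsae strain AF16, a mean below 1 CPM over 3 male libraries of the C. nigoni strain JU1421, and an AF16 ratio of males to females, with 1 CPM added to each, above 1/8. This left 100 of 23439 listed genes. Males enter the rule by strain and not by sex, and 84 of the 100 genes also stood at 1 CPM or more in the single AF16 female library. The list as a whole is therefore not specific to males, while 16 of its genes were below 1 CPM in that library, 8 of them without a count. Of 8556 genes that reached 10 CPM in AF16 males, 105 stayed below 1 CPM in JU1421 males, and the ratio then removed 5. The difference between AF16 and JU1421 males is therefore a condition of the list and not a result. The files identify genes by WormBase number alone, with no gene name, function or position, so the genes appear by number, no role is given for any of them, no sequence is shown, and the tissue could not be checked against marker genes.

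C. briggsae and C. nigoni can be crossed, and their hybrids show sterility and death of the kind known as hybrid incompatibility, in which parts of the genome that work within each species fail together. Males of these worms have a single X chromosome, inherited from the mother, so X-linked C. briggsae sequence placed in a C. nigoni background is the only copy a male has. C. nigoni has males and females, while C. briggsae animals with XX chromosomes ordinarily are self-fertile hermaphrodites that make their own sperm.

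RNA of whole young adults was sequenced from 6 groups, with 300 animals in each library. ZZY10330 males are sterile and C. nigoni in most of their genome, with C. briggsae sequence in place of the matching X segment from 16.4 Mb to the chromosome end. ZZY10307 males are sterile too and have C. briggsae X sequence from 4.5 to 12.2 Mb instead. Both were sired by JU1421 males on introgression mothers and picked for a pharyngeal GFP marker, cbr-myo-2::GFP, carried with the segment. AF16 males are wild-type, fertile C. briggsae, and JU1421 males are wild-type, fertile C. nigoni. Each of these 4 male groups had 3 libraries, and AF16 and JU1421 each had 1 further library labelled young adult female. Whether the libraries of a group were grown apart is not labelled, and every p-value below may therefore reflect technical spread alone. Library totals ran from 2372653 to 3785106 gene counts, so that 1 CPM stood for 2.37 to 3.79 counts in a library. In whole animals, fewer cells of a type and less RNA per cell cannot be told apart. No source used here states against which reference the reads of each species were counted, so species and read assignment cannot be told apart in any level below.

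Within AF16 males the 100 genes were mostly of modest abundance. Their mean levels ran from 10.06 to 1416 CPM with a median of 16.8 CPM, and 60 of them lay between 10 and 20 CPM, 22 between 20 and 50 CPM and 18 at 50 CPM or more. In 94 genes every AF16 male library stood at 5 CPM or more, and the coefficient of variation over the 3 libraries had a median of 28.2%. In JU1421 males 45 genes had no count in any library. The other 55 had at most 8 counts summed over the 3 libraries, and 32 of these had all their counts in a single library. The lower threshold of the list thus rests on very few counts. By the test used below, 84 of the 100 were called higher in AF16 than in JU1421 males, beside 9.23% of all 13289 genes tested; since the list was chosen on this difference, nothing is read from that count.

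The edges of the list are gradual. WBGene00036847 lay just inside at 10.06 CPM in AF16 males, and WBGene00040110 just outside at 9.998 CPM. On the JU1421 side WBGene00039335 lay inside at 0.977 CPM and WBGene00024228 outside at 1.03 CPM. The ratio of males to females left a gap, with WBGene00040668 inside at 0.185 and WBGene00034777 outside at 0.0490.

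**Figure D1:**
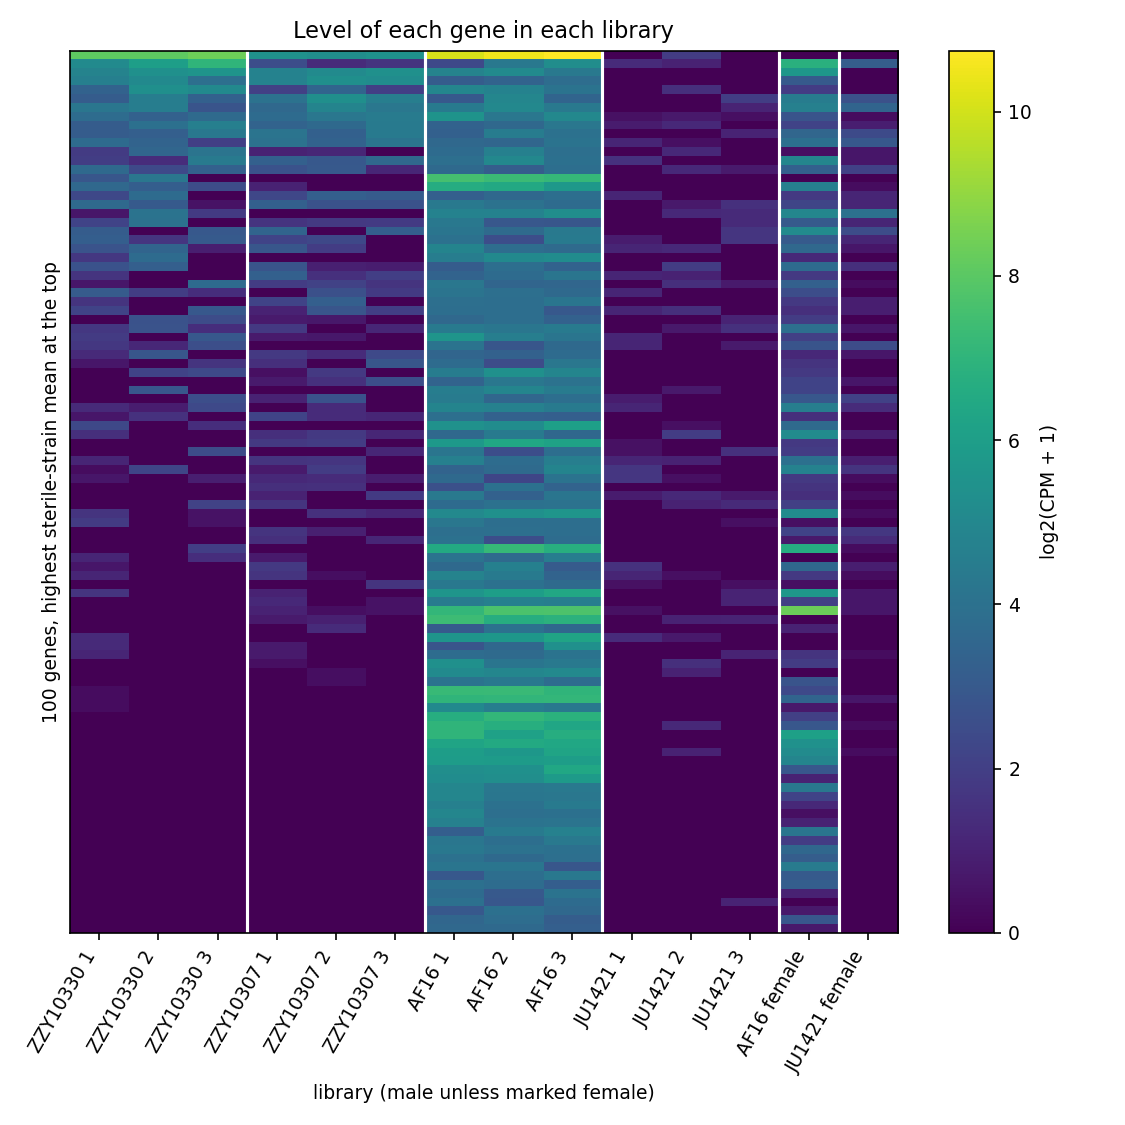
Level of each of the 100 genes (rows, ordered by the higher of the sterile-strain means) in each of the 14 libraries (columns), as log2(CPM + 1). The AF16 male columns are coloured throughout because the list was chosen on them, while a short block of genes at the top is also high in the sterile strains and the lower rows are dark in ZZY10330, ZZY10307 and JU1421.

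Sterile males of both introgression strains had little of this C. briggsae RNA. Summed over the 100 genes, the level was 675 ± 104 CPM in ZZY10330 males and 320 ± 20.9 CPM in ZZY10307 males, against 4596 ± 324 CPM in AF16 males (SD, n = 3 libraries each). In JU1421 males the sum was 31.7 ± 4.33 CPM (SD, n = 3), low by the choice of genes. The sums were 14.7% of the AF16 sum in ZZY10330 and 6.96% in ZZY10307. Much of the gap between the sterile strains came from a single gene, WBGene00037903, described below. Without it the sums were 386 ± 79.1 CPM in ZZY10330, 279 ± 23.0 CPM in ZZY10307 and 3180 ± 51.5 CPM in AF16, or 12.1% and 8.76% of AF16. The sterile-strain libraries then overlapped, with 295 to 435 CPM in ZZY10330 and 256 to 301 CPM in ZZY10307.

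By the thresholds that define the list, 10 of the 100 genes stood at 10 CPM or more in ZZY10330 males, 32 at 1 to 10 CPM and 58 below 1 CPM. In ZZY10307 males 9 stood at 10 CPM or more, 31 at 1 to 10 CPM and 60 below 1 CPM. The typical gene was close to absent, with a median over the list of 0.629 CPM in ZZY10330 and 0.525 CPM in ZZY10307. The middle class was noisy: 19 of its 32 genes in ZZY10330, and 15 of its 31 in ZZY10307, had no count in at least 1 library of the strain. All genes of the upper class stood at 1 CPM or more in every library of the strain. Choosing the list without JU1421 replicate 1, 2 or 3 admits further genes and gave 18, 15 and 16 genes in the upper class of ZZY10330, and 17, 14 and 15 in that of ZZY10307.

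These shares can be set beside those of other genes that were low in JU1421 males. Among the 1347 genes with 1 to 10 CPM in AF16 males and below 1 CPM in JU1421 males, 38.6% reached 1 CPM in ZZY10330 and 44.9% in ZZY10307, beside 42% and 40% of the 100 genes. Among 2184 genes below 1 CPM in males of both parents the shares were 22.9% and 27.6%. Neither of these lists has the limit on the sex ratio that the 100 genes have. The class at 10 CPM or more held 10% and 9% of the 100 genes, 1.78% and 1.71% of the 1347, and 0.870% and 0.824% of the 2184. The mirror list of 166 genes with at least 10 CPM in JU1421 males, below 1 CPM in AF16 males and the same limit on the sex ratio, is the counterpart from C. nigoni, the species of most of the genome of both sterile strains. Of it 95.8% reached 1 CPM in ZZY10330 and 94.6% in ZZY10307, with 55.4% and 54.8% at 10 CPM or more. These shares describe gene lists chosen on the parents, with no test between them.

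**Figure D2:**
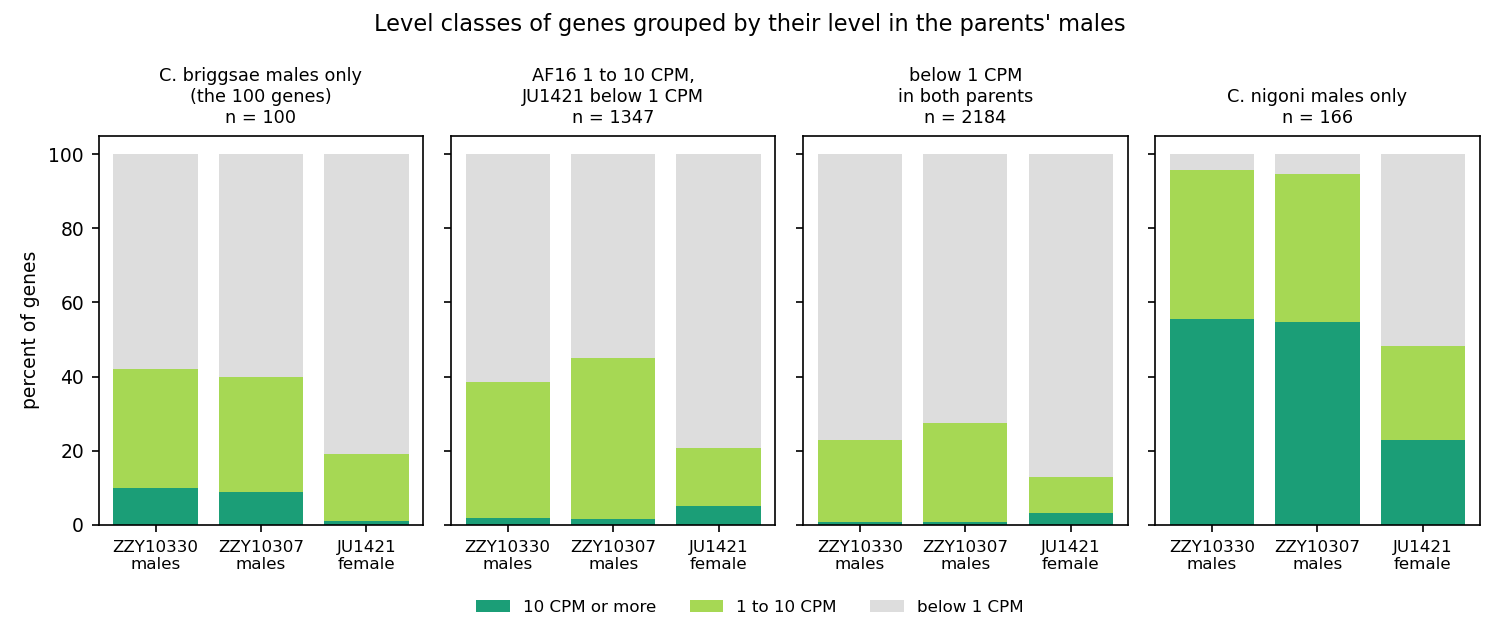
Percent of genes at 10 CPM or more, at 1 to 10 CPM and below 1 CPM in ZZY10330 males, ZZY10307 males (means of 3 libraries) and the single JU1421 female library, for the 100 genes and 3 other lists chosen on the parents' males. The 100 genes reach 1 CPM in 42% and 40% of cases in the sterile strains, against 95.8% and 94.6% in the mirror list of 166 C. nigoni genes.

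The most abundant genes of AF16 males were mostly close to absent in the sterile strains. Of the 18 genes at 50 CPM or more in AF16, 14 were below 1 CPM in both sterile strains. Of the 60 genes between 10 and 20 CPM, 24 were below 1 CPM in both. A set of 22 genes had no count in any of the 6 sterile and 3 JU1421 male libraries, and none of these 22 had a count in the JU1421 female library. The most abundant of them was WBGene00087001, at 103, 138 and 115 CPM in AF16 males. It had 3.09 CPM in the AF16 female library. WBGene00041962 followed with 128, 70.3 and 102 CPM in AF16 males and 67.2 CPM in the AF16 female library. No count over a strain's 3 libraries allows a level of up to 0.312 CPM in ZZY10330, 0.352 CPM in ZZY10307 and 0.360 CPM in JU1421, by a limit of 3 counts that covers counting error only.

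WBGene00030091, second in abundance in AF16 males, shows how complete the gap could be. It stood at 137, 204 and 213 CPM in AF16 males. It had no count in ZZY10330 and 5 counts over the ZZY10307 libraries, with 1.04, 0.307 and 0.418 CPM. JU1421 males had 1 count in all, and the female libraries had 320 CPM in AF16 and 0.586 CPM in JU1421. RNA of this gene was abundant in C. briggsae animals of either label and close to absent in every other group.

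Against AF16 males, 66 of the 100 genes were called lower in ZZY10330 and 63 in ZZY10307, beside 13.3% of all genes in either comparison (edgeR quasi-likelihood test, Benjamini-Hochberg adjusted p below 0.05). The median log2 difference over the list was -5.19 in ZZY10330 and -5.52 in ZZY10307, while over all genes tested it was 0.07 and 0.13. With levels below 3 counts over a strain held at 3 counts, the medians of the list were -5.19 and -5.28. Because the genes were chosen for being high in these same AF16 libraries, these counts are no independent evidence of a fall.

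By CPM without further scaling, 5 of the 100 genes stood at or above their AF16 male mean in each sterile strain and 95 below it. Against JU1421 males, 19 of the 100 were called higher in ZZY10330, beside 12.6% of all genes tested, and 14 in ZZY10307, beside 9.29% (edgeR, as above). The JU1421 libraries of these comparisons are the ones on which the genes were chosen to be low, and both comparisons share these libraries. A call above JU1421 gives no level relative to AF16, so nothing is read from these counts. With only the compared strains in the fit 12 of the 100 genes passed the filter in each comparison, and the ZZY10330 count was 10. Among the genes that passed were 12 of the 19 and 10 of the 14. The ZZY10307 count was 9 without JU1421 replicate 3, and 9 without AF16 replicate 2, a library that enters this comparison through the filter and the shared spread.

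The overlap of the sterile strains is given as a description, among genes whose choice depends on the JU1421 libraries. Of the 10 genes at 10 CPM or more in ZZY10330 and the 9 in ZZY10307, 8 were the same, which is 80% and 88.9% of the lists. The same overlap over all genes was not computed, so nothing particular to the 100 genes is read from it. Among 7430 genes at 10 CPM or more in males of both parents, 94.1% reached that level in ZZY10330 and 96.2% in ZZY10307. These are shares of each strain taken alone and give no overlap. The introgressed segments of the strains do not overlap by the labels, and the positions of the 100 genes are not given. At 1 CPM or more stood 27 genes in both strains, 15 in ZZY10330 alone and 13 in ZZY10307 alone, and 45 were below 1 CPM in both. The same counts over all genes were not computed either, so nothing is read from them. Of the 27, 13 were at 1 CPM or more in each of the 6 libraries. The 8 shared genes made up 61.8% of the summed level in ZZY10330 and 62.7% in ZZY10307. They stood at 20.4 to 231% of their AF16 male level in ZZY10330 (median 80.5%) and at 2.89 to 333% in ZZY10307 (median 103%). The 8 were picked for 10 CPM or more in both sterile strains, while the median AF16 male level of the list was 16.8 CPM. For a gene of modest AF16 level this cut alone keeps the percent from being small, so no closeness to AF16 is read here. These percents use CPM without further scaling, by which 5 of the 100 genes stood at or above AF16 in each sterile strain. With the TMM scaling of libraries used for the tests, 5 were above AF16 in ZZY10330 and 3 in ZZY10307.

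WBGene00024230 was the second highest of these in the lower of its sterile-strain means. It stood at 27.0, 41.2 and 45.9 CPM in ZZY10330, at 25.8, 34.4 and 40.999 CPM in ZZY10307 and at 26.6, 34.7 and 19.2 CPM in AF16 males. The 3 groups overlapped. No count fell on it in 3 JU1421 male libraries or in the JU1421 female library, while the AF16 female library had 50.1 CPM. Held against a floor of 3 counts over the JU1421 male libraries, which the rule required to be low, the level was at least 86.7-fold higher in ZZY10330 and at least 70.3-fold higher in ZZY10307, given as a description. Of the 6 sterile-strain libraries, 3 lay within the AF16 male range and 3 above it, by CPM without further scaling. TMM factors were 0.928 to 0.958 in AF16 males and 0.966 to 1.18 in the sterile strains. Scaling by these factors lowers the sterile levels relative to AF16, so no excess over AF16 is read from this gene.

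WBGene00035895 had a mean above its AF16 male mean in both sterile strains, and passed the test against AF16 in ZZY10307 only. It stood at 23.5, 33.0 and 14.3 CPM in ZZY10330, at 26.1, 40.2 and 36.0 CPM in ZZY10307 and at 7.80, 9.77 and 13.2 CPM in AF16 males, with no JU1421 count in either sex. Neither sterile strain overlapped AF16. It was the only one of the 100 called higher in ZZY10307 than in AF16 males, beside 12.8% of all genes tested, and is named after its values were seen, with a log2 difference of 1.43 (SE 0.50, edgeR adjusted p = 0.0411). In ZZY10330 the log2 difference from AF16 was 1.05 (SE 0.50, edgeR adjusted p = 0.131) and did not pass. The ZZY10307 call was lost in 9 of 18 alternatives, among them each removal of a ZZY10307 or AF16 library, with adjusted p from 0.00943 to 0.145. Against the floor in JU1421 males, low by the rule, the level was at least 58.2-fold higher in ZZY10330 and at least 72.3-fold higher in ZZY10307. The single library of AF16 females had 7.20 CPM.

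WBGene00030362 belonged to the same group and had RNA in the JU1421 female library, as some others of the group did. It stood at 17.7, 22.2 and 5.90 CPM in ZZY10330, at 11.5, 27.6 and 18.4 CPM in ZZY10307 and at 19.8, 31.2 and 19.2 CPM in AF16 males. The JU1421 males had 3 counts, all in replicate 3. The AF16 female library had 24.7 CPM and the JU1421 female library 9.96 CPM, so the gene is represented in the counts of C. nigoni animals. In the JU1421 female library WBGene00031208 had 5.27 CPM, WBGene00026446 4.39 CPM, WBGene00026258 0.878 CPM and WBGene00034968 0.293 CPM. WBGene00024230, WBGene00035895 and WBGene00037903 had no count there.

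**Figure D3:**
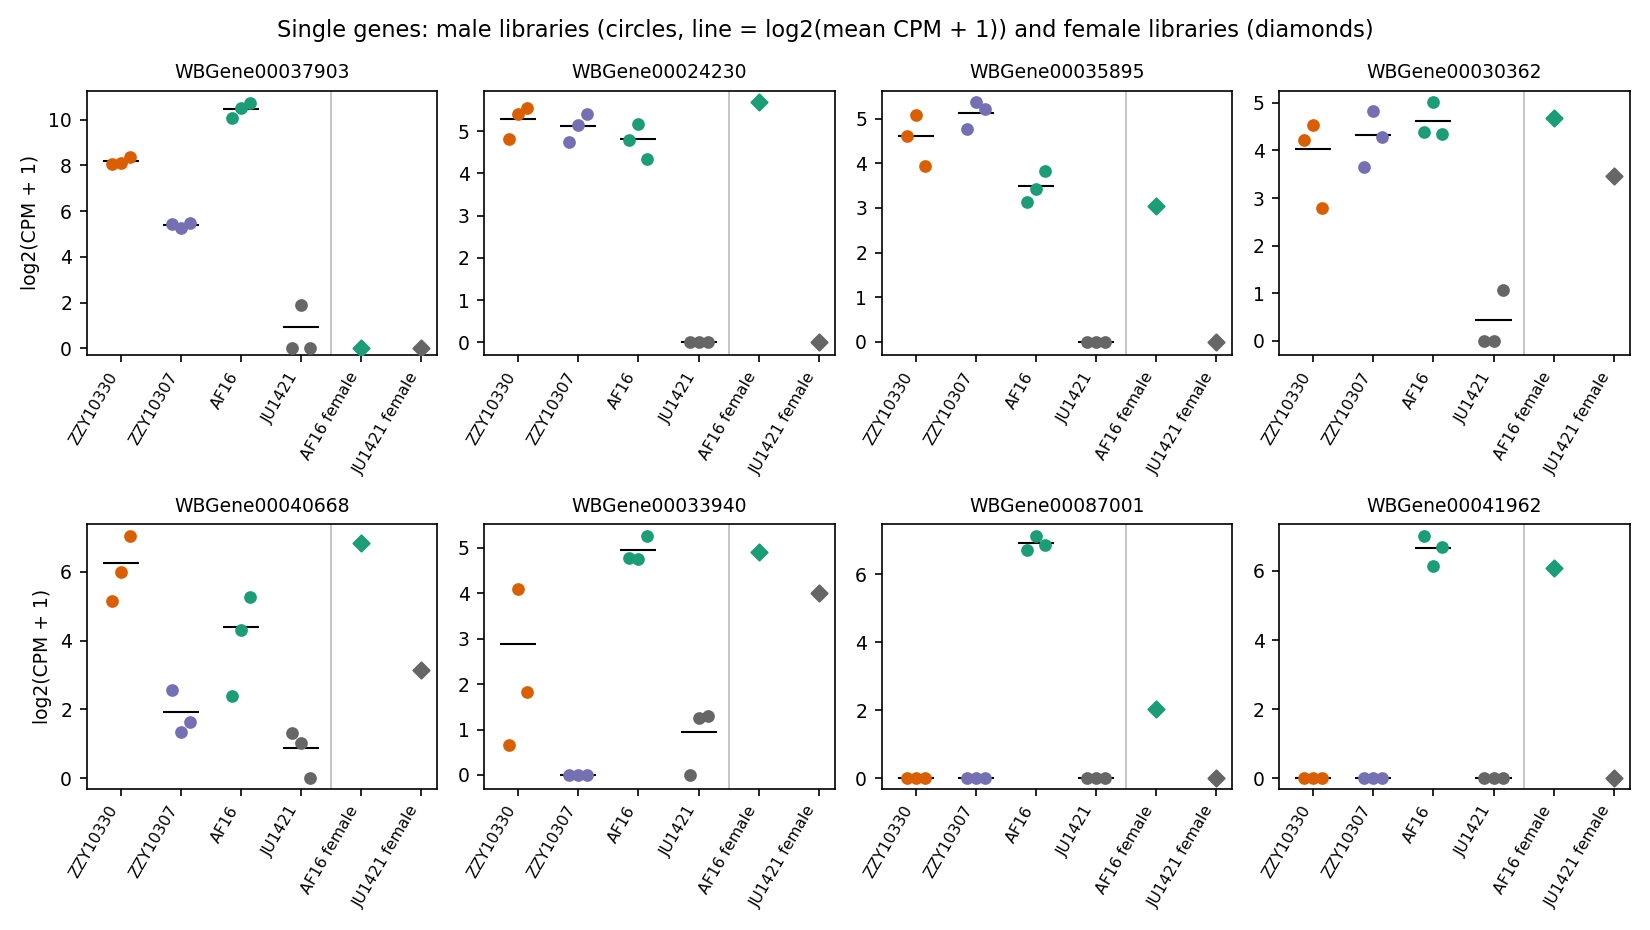
Level of 8 of the genes in each library, as log2(CPM + 1), with circles for the 3 male libraries of a strain, a line at their mean and diamonds for the single female libraries. WBGene00024230 and WBGene00035895 have similar or higher levels in the sterile strains than in AF16 males, by CPM without further scaling. WBGene00030362 stands at 65.2% of its AF16 male mean in ZZY10330 and 81.9% in ZZY10307. WBGene00037903 lies between its AF16 and JU1421 levels in both sterile strains, and WBGene00087001 and WBGene00041962 have RNA in AF16 only.

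The comparison of the sterile strains with each other sets no AF16 or JU1421 level against another, although those libraries enter it through the filter on low counts and the shared spread. In it 9 of the 100 genes were called higher in ZZY10330 than in ZZY10307 and 1 was called lower, beside 5.07% and 3.44% of all genes tested (edgeR, as above), so the list's 9% and 1% lie near the share of genes at large and are no result about it. In 25 genes neither strain had a count. The median log2 difference was 0.00 over the list and 0.02 over all genes. With these strains alone in the fit edgeR called 2 higher and 0 lower (4 and 0 at an unadjusted p below 0.05), while DESeq2 on all 12 libraries called 9 and 2. In that smaller fit 21 of the 100 genes passed the filter, 4 of the 9 among them and not the 1 lower. The other genes called with all 12 libraries were tested only because AF16 males had them, so the 9 and 1 support nothing about the list. Leaving out any single ZZY10307 library, AF16 replicate 1 or AF16 replicate 3 brought the 9 down to 4 or 5.

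WBGene00037903 carried the clearest of these differences. It stood at 265, 272 and 328 CPM in ZZY10330 and at 42.1, 37.7 and 43.1 CPM in ZZY10307. The fitted log2 difference was 2.98 (SE 0.34, edgeR adjusted p = 3.26e-05), and it passed in all 18 alternatives run. AF16 males had 1089, 1448 and 1711 CPM, the highest level of the list, so that ZZY10330 reached 20.4% of the AF16 mean and ZZY10307 2.89%. Relative to AF16 males, in which the gene was chosen to be high, the fitted log2 difference was -2.43 in ZZY10330 and -5.41 in ZZY10307, given as a description. The 8 counts of JU1421 males all lay in replicate 2. Neither female library had a count, and the 4 male groups did not overlap.

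WBGene00040668 was higher in ZZY10330 than in any other male group on average. It stood at 34.6, 63.1 and 130 CPM in ZZY10330 and at 4.87, 1.53 and 2.09 CPM in ZZY10307, a log2 difference of 4.90 (SE 0.81, edgeR adjusted p = 0.00105) that passed in all 18 alternatives. AF16 males had 4.22, 18.7 and 37.7 CPM, and JU1421 males 1.51, 1.03 and 0 CPM. It was also the gene with the lowest ratio of males to females in AF16, as the AF16 female library held 113 CPM and the JU1421 female library 7.91 CPM. AF16 males varied widely among themselves, and ZZY10330 overlapped them in its lowest library.

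Leaving aside genes under 5 CPM in both strains, the largest fitted differences among the called genes belonged to WBGene00033940 and WBGene00089407, and the ZZY10330 libraries disagreed on both. WBGene00033940 stood at 0.581, 16.1 and 2.53 CPM in ZZY10330, at least 22.5-fold higher than ZZY10307 with no count. AF16 males had 26.3, 25.8 and 37.3 CPM, and JU1421 males 0, 1.37 and 1.45 CPM. WBGene00089407 stood at 2.32, 12.7 and 0 CPM in ZZY10330, at least 18.3-fold higher than ZZY10307 with no count, against 22.4, 32.8 and 36.1 CPM in AF16 males and no count in JU1421. Both genes passed the filter through AF16 males and not with the sterile strains alone, so their calls are no support for a difference between these strains. Most of the ZZY10330 counts of both genes thus came from replicate 2.

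The single gene called lower in ZZY10330 than in ZZY10307, named after its values were seen, was WBGene00034355. It had no count in ZZY10330 and 2.44, 2.76 and 0 CPM in ZZY10307, which puts ZZY10330 at least 5.45-fold below ZZY10307. AF16 males had 55.6, 82.2 and 71.9 CPM. The ZZY10307 level rests on 16 counts in replicates 1 and 2, and the gene passed the filter through AF16 males alone, so its call is no support for a difference either. WBGene00041969, likewise named afterwards, was the only one of the 100 called lower in ZZY10330 than in JU1421 males, beside 16.1% of all genes tested. It had no count in ZZY10330 and 6 counts in JU1421, at least 2.75-fold lower, and AF16 males had 164, 102 and 120 CPM. It too passed the filter through AF16 males alone, and the JU1421 libraries are those of the rule, so nothing is read from its call.

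**Figure D4:**
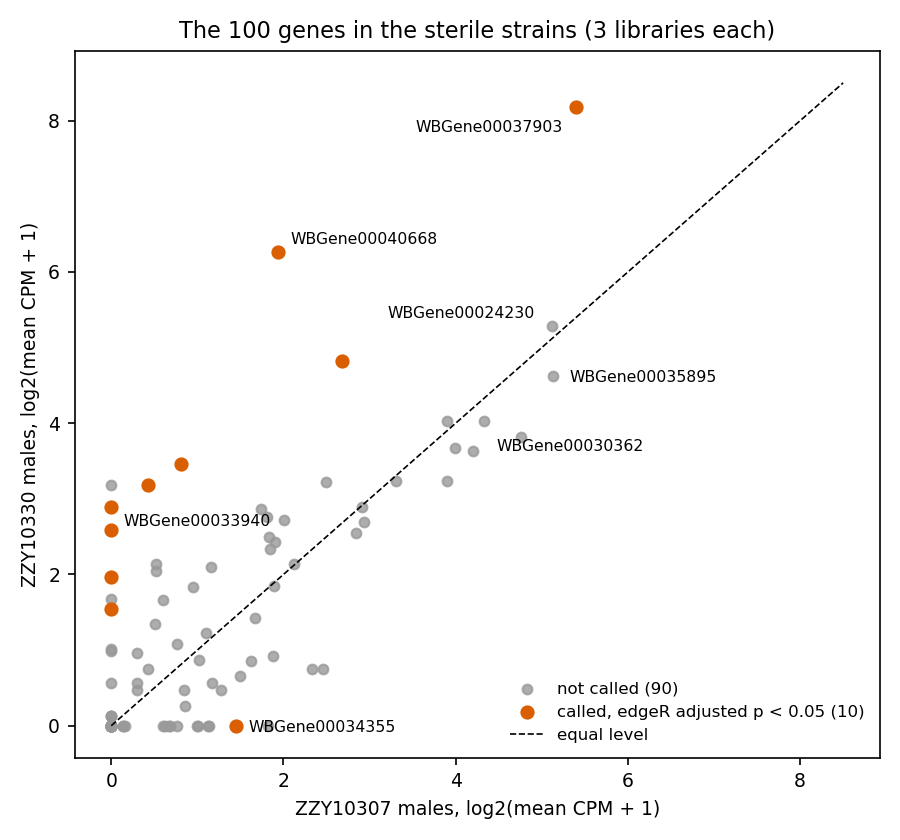
Mean level of each of the 100 genes in ZZY10330 males (vertical) and ZZY10307 males (horizontal), as log2(mean CPM + 1) over 3 libraries each, with the 10 genes called different between the strains in the fit of all 12 male libraries in orange, of which 4 also passed the filter with these strains alone. WBGene00037903 and WBGene00040668 lie far above the line of equal level, and the 8 genes at 10 CPM or more in both strains include WBGene00024230, WBGene00035895 and WBGene00030362.

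Most of the 100 genes also had RNA in the AF16 female library, in which 31 genes stood at 10 CPM or more, 53 at 1 to 10 CPM and 16 below 1 CPM, of which 8 had no count. The ratio of AF16 males to the AF16 female library, with 1 CPM added to each, was 4 or more in 46 genes, between 1/4 and 4 in 53 and below 1/4 in 1, a range limited below by the rule. In 12 genes the female library was the higher. Each female library has no replicate, and RNA amount and read length are stated for male libraries only, so sex and library preparation cannot be told apart.

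The extremes of that ratio were far apart. WBGene00037903 had the highest, with no female count beside 1416 ± 312 CPM in AF16 males (SD, n = 3). WBGene00029533 followed with 192, 159 and 140 CPM in AF16 males and no count in either female library. It had 6.39, 18.0 and 0 CPM in ZZY10330 and no count in ZZY10307 or JU1421 males. At the other end, after WBGene00040668, WBGene00032322 stood at 11.4, 20.1 and 10.9 CPM in AF16 males and 35.3 CPM in the AF16 female library. It was low in ZZY10330 at 1.74, 0 and 0 CPM, and in ZZY10307 at 1.74, 2.45 and 1.26 CPM.

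The JU1421 female library, which had no part in the choice, was also poor in these genes. It had 81 of the 100 below 1 CPM, 54 of them without a count, 18 at 1 to 10 CPM and 1 at 10 CPM or more. That gene was WBGene00033940 at 14.9 CPM, beside 29.1 CPM in the AF16 female library. No count allows up to 0.878 CPM in this library, by the limit of 3 counts. Of the 84 genes at 1 CPM or more in the AF16 female library, 66 were below 1 CPM in the JU1421 female library, or 78.6%. Over all 12917 genes at 1 CPM or more in the AF16 female library that share was 18.6%, in a comparison of single libraries with no test. Other genes low in JU1421 males, taken without the limit on the sex ratio, were also poor in the JU1421 female library. In it 19% of the 100 genes reached 1 CPM. Of the 1347 genes at 1 to 10 CPM in AF16 males and below 1 CPM in JU1421 males, 20.8% did so. Of the 2184 genes below 1 CPM in males of both parents, 13% did so. At 10 CPM or more stood 1% of the 100 genes, 5.12% of the 1347 and 3.21% of the 2184.

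The split of the list by its AF16 ratio of males to females gave different counts in the sterile males. Among the 54 genes with an AF16 ratio of males to females below 4, 30 reached 1 CPM in ZZY10330 and 29 in ZZY10307. Among the 46 genes with a ratio of 4 or more, 12 did so in ZZY10330 and 11 in ZZY10307. The JU1421 female library followed the same split, with 18 of the 54 and 1 of the 46 at 1 CPM or more. At 10 CPM or more in ZZY10330 were 7 of the 54 and 3 of the 46. The ratio was part of the rule and rests on 1 female library, so the split is a description.

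**Figure D5:**
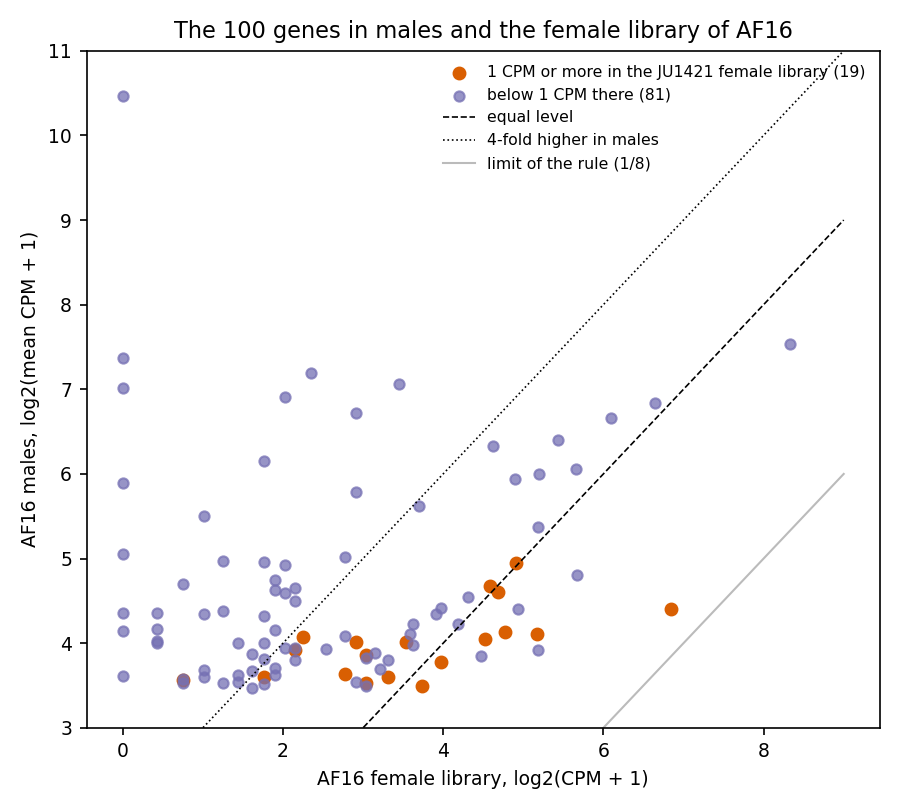
Mean level of each of the 100 genes in AF16 males (vertical, 3 libraries) and level in the single AF16 female library (horizontal), both as log2(CPM + 1), with orange for the 19 genes at 1 CPM or more in the JU1421 female library. The orange points lie at low to middle male levels, and all but 1 fall below the dotted line that marks a male level 4-fold above the female one.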

How the data were processed

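Per the labels' protocols, whole worms gave the RNA, a TruSeq kit that marks strand was used, and male libraries started from 300 ng. Trimmomatic and edgeR are the tools listed, per the submitters' processing notes, while no source used here gives the aligner, counter, build, annotation or strand setting. Whole-number counts for each gene were deposited for 14 libraries by the authors, as the values show; a second kind of table, on transposable elements, was not used here. Without a table of names, the planned marker check and family counts were not run, and near-identical or overlapping genes cannot be told apart.

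CPM here are counts divided by a library's total, without further scaling. For tests, genes were kept by filterByExpr of edgeR 4.0.16 with a minimum count of 10, which left 13289 genes and all 100 of the list. A gene can pass through AF16 alone. TMM scaling was applied to the 12 male libraries, which entered a single model with a coefficient for each strain, and pairs of strains were tested by the robust quasi-likelihood F test, adjusted by Benjamini-Hochberg over all genes and called below 0.05. SE is the log2 difference divided by the root of F. Folds given as at least a value use TMM-scaled levels with a floor of 3 counts over a group; floors cover counting error only. Replicate libraries differed by more than counting noise (chi-square divided by its degrees of freedom, 7.01 to 25.6). Alternatives were other scalings, no filter, DESeq2 1.42.0, fits of the compared strains alone, a replicate block, leaving out each library and other thresholds of the list. The code was tested on simulated data.

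The genes and lists were chosen with earlier results of these data known. Genes named are the first 2 by each part of a written rule: the largest called differences between sterile strains with at least 5 CPM in the higher, the highest lower mean of the sterile strains, the most abundant in AF16 without any sterile or JU1421 male count, the highest in JU1421 females, the extremes of the AF16 ratio, the most abundant, and those at the thresholds.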

Additional observations from a re-analysis of the deposited data

Results flagged for a closer look

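Between the sterile strains, 5 of the genes named above were called different in the fit of all 12 male libraries (ZZY10330 minus ZZY10307, edgeR). The log2 difference was 2.98 for WBGene00037903 and 4.90 for WBGene00040668, which were also called with the sterile strains alone in the fit. The fitted value was 7.20 for WBGene00033940, 6.85 for WBGene00089407 and -5.28 for WBGene00034355. These 3 genes had no count in the lower strain and were tested only because they passed the filter through AF16 males, so no difference between the sterile strains is drawn from them. Their fitted values depend on the prior count.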

How the results depend on the processing

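The list holds 102 genes with TMM-scaled or DESeq2-scaled CPM, 92 of them in common with the 100, and 97 to 119 when 1 male library is left out. It holds 222 genes with AF16 at 5 CPM or more, 40 at 20 CPM or more and 168 with JU1421 below 2 CPM. With TMM-scaled CPM, genes at 10 CPM or more numbered 8 in ZZY10330 and 7 in ZZY10307, and with DESeq2-scaled CPM 9 and 7. Leaving out a library, they numbered 8 to 18 in ZZY10330 and 8 to 17 in ZZY10307. The high values came without a JU1421 library. Calls between ZZY10330 and ZZY10307 ranged over 4 to 9 higher and 0 to 1 lower, calls above JU1421 over 14 to 19 in ZZY10330 and 9 to 18 in ZZY10307, and calls below AF16 over 54 to 67 and 57 to 70. With only the compared strains fitted, edgeR called 2 genes higher and 0 lower in ZZY10330 than ZZY10307 (of 21 genes tested; 4 and 0 at an unadjusted p below 0.05; DESeq2 on all libraries, 9 and 2), and 10 higher in ZZY10330 than JU1421. Lower in ZZY10330 than ZZY10307 were 2 genes without the filter and 2 by DESeq2. Scaling by total counts alone moved the median of all genes by 0.39 (log2) for ZZY10307 and 0.22 for ZZY10330 against JU1421, and by -0.15 between the sterile strains, where 6 genes were then called higher. No other count of calls moved by over 1.5 times under DESeq2 size factors, total counts, no filter, DESeq2 or the block. The cause of these changes was not tested. Single-gene calls kept their direction in all alternatives run, with 208 results still called and 22 not.

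Replicate numbers do not pair the libraries: same-numbered libraries deviated together with correlations of -0.0502 to 0.0527 over 18 pairs, and 2 of 12 correlated best with a library of their own number. With the replicate number as a block, 6 genes were called higher in ZZY10330 than ZZY10307 and 1 lower, 16 and 10 above JU1421 in ZZY10330 and ZZY10307, and 66 and 64 below AF16.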

Other observations

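The ZZY10330 libraries differed in how many of the 100 genes they showed, in a pattern noticed after the data were seen. Replicate 1 had counts for 54 of the genes, replicate 2 for 34 and replicate 3 for 39, although replicate 2 was the deepest of the 3, with 3785106 counts. Over all listed genes the same libraries had counts for 14531, 12516 and 12854. The ZZY10307 libraries had counts for 55, 47 and 36 of the 100, and for 15081, 14580 and 14518 of all listed genes. The reason was not tested.

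WBGene00029533, WBGene00033940 and WBGene00089407 had their highest ZZY10330 level in replicate 2, with 68, 61 and 48 counts, and 0, 6 and 0 counts in replicate 3. None of these 3 genes had a count in ZZY10307. Their counts in replicate 1 were 22, 2 and 8.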
